A study of Mus musculus with 8 samples.

Results

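The beta variable (Trbv) and alpha joining (Traj) segments of the mouse T cell receptor were followed across regulatory T cells (Tregs, which restrain immune responses) from the spleens of SRC-3 knockout and control mice. The members are every row of the deposited gene table whose symbol starts with Trbv or Traj, whatever its biotype. There are 95 of them among 55487 rows, 35 Trbv and 60 Traj. At least 1 FPKM (a fragment level corrected for transcript length and library size) in at least 2 of the 8 libraries was reached by 77, namely 22 Trbv and 55 Traj, and 66 reached it in all 8.

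The 8 RNA sequencing libraries form 4 groups of 2, from spleens of mice without tumors. WT YFP+ (numbers 23 and 24) are YFP+ Tregs of a C57BL/6 control. The 2 KO groups, KO YFP+ and KO YFP- (each with numbers 84 and 85), are Tregs with and without YFP from SRC-3 KO mice of a mixed C57BL/6 and 129SvEv background. SRC-3ff (numbers 68 and 72) are Tregs of a second control of the 129SvEv strain, with no YFP sort in the label. Age, what YFP marks, which cells carry the deletion and which part of the gene is deleted are not stated, so strain, genotype and sort cannot be told apart in most comparisons. Where 8 values are given for a gene, they follow the order WT YFP+ 23 and 24, KO YFP+ 84 and 85, KO YFP- 84 and 85, SRC-3ff 68 and 72.

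An alpha beta T cell receptor is assembled in the thymus by joining gene segments. The beta chain takes 1 variable, 1 diversity and 1 joining segment, and the alpha chain 1 variable and 1 joining segment, each spliced to a constant segment (Trbc1 or Trbc2, Trac). A T cell and its daughters keep the same rearrangement. Joining segments are numbered from the constant segment outwards, and early alpha rearrangements use the segments far from Trac, with later ones moving towards it. Some T cells use a fixed alpha chain. Invariant NKT cells, which see lipids on CD1d, join Trav11 to Traj18, and mucosal-associated invariant T (MAIT) cells, which see riboflavin metabolites on MR1, join Trav1 to Traj33.

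The joining segments are short. On GRCm38 they lie on chromosome 14 between 54155005 and 54218842, upstream of Trac (54220521 to 54224206, same strand), and their transcripts are 29 to 72 bases long with a median of 61. The segments the results turn on are shown 5′ to 3′ from the GENCODE M21 transcripts. Capitals mark TTNGGNNNNGG, the letters of the phenylalanine-glycine-X-glycine turn that most joining segments encode. Traj61, Traj60 and Traj59 are the segments farthest from Trac, Traj33 and Traj18 are those of MAIT and invariant NKT cells, and the others each stood far above the rest in 1 or 2 libraries.
Traj61: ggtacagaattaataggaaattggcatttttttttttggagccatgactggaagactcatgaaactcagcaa
Traj60: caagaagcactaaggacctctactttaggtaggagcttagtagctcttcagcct
Traj59: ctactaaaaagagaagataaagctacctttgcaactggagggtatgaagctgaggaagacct
Traj50: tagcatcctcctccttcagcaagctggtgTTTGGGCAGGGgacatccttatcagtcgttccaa
Traj34: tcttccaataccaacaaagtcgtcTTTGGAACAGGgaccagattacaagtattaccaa
Traj33: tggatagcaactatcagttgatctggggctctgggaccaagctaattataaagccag
Traj28: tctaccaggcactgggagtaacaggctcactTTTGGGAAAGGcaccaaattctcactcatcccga
Traj18: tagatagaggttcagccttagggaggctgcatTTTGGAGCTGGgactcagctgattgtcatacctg
Traj12: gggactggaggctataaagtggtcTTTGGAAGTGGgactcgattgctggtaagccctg
Traj11: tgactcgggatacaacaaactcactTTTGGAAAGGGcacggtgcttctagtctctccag
Traj9: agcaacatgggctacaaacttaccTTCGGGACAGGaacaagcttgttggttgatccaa
Traj8: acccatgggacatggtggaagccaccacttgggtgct
All lie on the plus strand of GRCm38, Traj61 at chr14:54155005-54155076, Traj60 at chr14:54155933-54155986, Traj59 at chr14:54156133-54156194, Traj50 at chr14:54167590-54167652, Traj34 at chr14:54184699-54184756, Traj33 at chr14:54185358-54185414, Traj28 at chr14:54191661-54191725, Traj18 at chr14:54200777-54200842, Traj12 at chr14:54206553-54206610, Traj11 at chr14:54207139-54207197, Traj9 at chr14:54209393-54209450 and Traj8 at chr14:54209918-54209954. The motif was found in 46 of the 60 Traj, 44 of 51 rows of gene biotype and 2 of 9 of pseudogene biotype, and in 0 on the opposite strand. In the first 60 bases of 32851 RefSeq promoter windows (GRCm38.p6) it was found in 1.62% on the forward strand and 3.13% on either strand. Traj61, Traj60, Traj59, Traj33 and Traj8 lack it, and Traj61, Traj60 and Traj8 are listed as pseudogenes. The mean FPKM over the 8 libraries had a median of 16.5 over the Traj with the motif (0.0846 to 94.2) and 3.14 over those without (0.180 to 39.0).

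The beta variable segments lie on chromosome 6 between 40891229 and 41558452, with transcripts of 260 to 566 bases (median 366). Trbv31 is the last of them and lies on the minus strand. The last 60 bases of 8 segments are shown, since the Trbv12 and Trbv13 copies and the neighbours Trbv14, Trbv15 and Trbv16 recur in the results. Capitals mark the last TGTGCN, which holds the cysteine codon that ends the framework of the variable segment.
Trbv12-1: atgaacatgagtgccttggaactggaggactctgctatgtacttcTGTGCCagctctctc
Trbv12-2: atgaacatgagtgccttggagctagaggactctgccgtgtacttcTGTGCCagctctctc
Trbv13-1: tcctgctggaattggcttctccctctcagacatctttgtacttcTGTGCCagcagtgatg
Trbv13-2: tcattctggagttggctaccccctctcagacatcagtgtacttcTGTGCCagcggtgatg
Trbv13-3: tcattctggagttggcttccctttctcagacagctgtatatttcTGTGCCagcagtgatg
Trbv14: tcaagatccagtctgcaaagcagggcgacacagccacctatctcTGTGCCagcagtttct
Trbv15: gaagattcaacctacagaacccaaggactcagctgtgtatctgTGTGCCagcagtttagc
Trbv16: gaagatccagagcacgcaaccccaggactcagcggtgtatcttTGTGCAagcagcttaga
The stretches shown lie on the plus strand of GRCm38, Trbv12-1 at chr6:41114008-41114067, Trbv12-2 at chr6:41119305-41119364, Trbv13-1 at chr6:41116409-41116468, Trbv13-2 at chr6:41121773-41121832, Trbv13-3 at chr6:41130526-41130585, Trbv14 at chr6:41135557-41135616, Trbv15 at chr6:41141599-41141658 and Trbv16 at chr6:41152171-41152230. In the last 60 bases TGTGCN was found in 19 of 22 Trbv rows of gene biotype and 7 of 13 of pseudogene biotype, and on the opposite strand in 1 of 35. Of the same promoter windows 5.72% held it on the forward strand and 11.4% on either strand. The last exons of Trbv13-2 and Trbv13-3 were 91.8% identical, those of Trbv13-1 and Trbv13-2 88.8%, and those of Trbv12-1 and Trbv12-2 89.1%, against a median of 55.6% over 595 pairs of Trbv. Reads of these copies can be split between them, so single members of Trbv12 and Trbv13 are uncertain. Trbv4 and Trbv5 overlap another annotated gene.

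Ncoa3, which encodes SRC-3, measured 46.3, 42.7, 10.9, 10.2, 32.1, 32.2, 49.7 and 35.4 FPKM, lowest in KO YFP+, while KO YFP- lay nearer to the controls. Foxp3, the Treg transcription factor, measured 19.9 to 31 in the 4 YFP+ libraries and 113 to 205 in the others. The 4 YFP+ libraries and the other 4 also differed in markers of other lymphocytes. The summed FPKM of 4 gamma delta T cell markers was 4.49 to 7.81 in YFP+ and 201 to 439 in the others, that of 6 NK cell markers 0.406 to 1.05 against 37.7 to 134 (Klra8 at 0 in all), that of 6 B cell markers 15.3 to 25.2 against 56.3 to 155 and that of 4 plasma cell markers 85.9 to 126 against 349 to 956. Cd8a, Pax5, Rag1, Rag2 and Ptcra were below 1 FPKM in every library. The sum of 6 T cell markers was 1849 to 2355 in YFP+ and 1615 to 2267 in the others. Among them Cd5 was higher in YFP+ (log2 difference 0.58, limma adjusted p = 0.017). Cd2 (0.37, 0.056), Cd4, Cd3d, Cd3e and Cd3g did not pass. The sum of 5 Treg markers was 407 to 442 in YFP+ and 449 to 622 in the others, but its members did not move together. Foxp3 was lower in YFP+ (log2 difference -2.67, limma adjusted p = 0.00047) and Il2ra higher (0.68, 0.0035). Il2ra measured 113, 113, 95.7, 92.4, 43.5, 42.8, 107 and 83.1 FPKM, lowest in KO YFP-. Ctla4, Ikzf2 and Tnfrsf18 did not pass (adjusted p = 0.99, 0.69 and 0.43). The sum of 2 CD8 T cell markers was 7.86 to 12.4 in YFP+ and 4.16 to 5.72 in the others. The 5 myeloid markers summed to 0.170 to 1.09 in YFP+ and 2.33 to 5.92 in the others. The 3 erythroid markers summed to 0.351 to 1.40 against 1.42 to 12.6, and the 4 thymocyte markers to 0.412 to 0.684 against 1.29 to 3.31. These sums were low, but each was lower in every YFP+ library than in any of the others. The part of these other cells in the differences below was not tested, except where a value is given, and fewer cells of a type cannot be told apart from less RNA per cell in such samples. Total FPKM per library was 384107 to 416393, and the depth is unknown.

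Of the 22 Trbv that passed the filter, 21 reached 1 FPKM in every library. The 13 that missed the filter were Trbv21, at most 0.823 FPKM, and 12 rows of pseudogene biotype, 4 of them listed at 0 in all 8 libraries. Trbv24 was the 1 pseudogene row that passed, with 0.959 to 3.83 FPKM. Pseudogene rows held 0.104% to 0.286% of the Trbv FPKM of a library. Trbv13-2 had the highest FPKM in every library, followed on the mean share by Trbv16, Trbv1, Trbv31, Trbv13-1, Trbv13-3, Trbv5 and Trbv12-2. Their mean shares of the Trbv FPKM over the 8 libraries ran from 14.2% for Trbv13-2 to 5.51% for Trbv12-2.

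**Figure D1:**
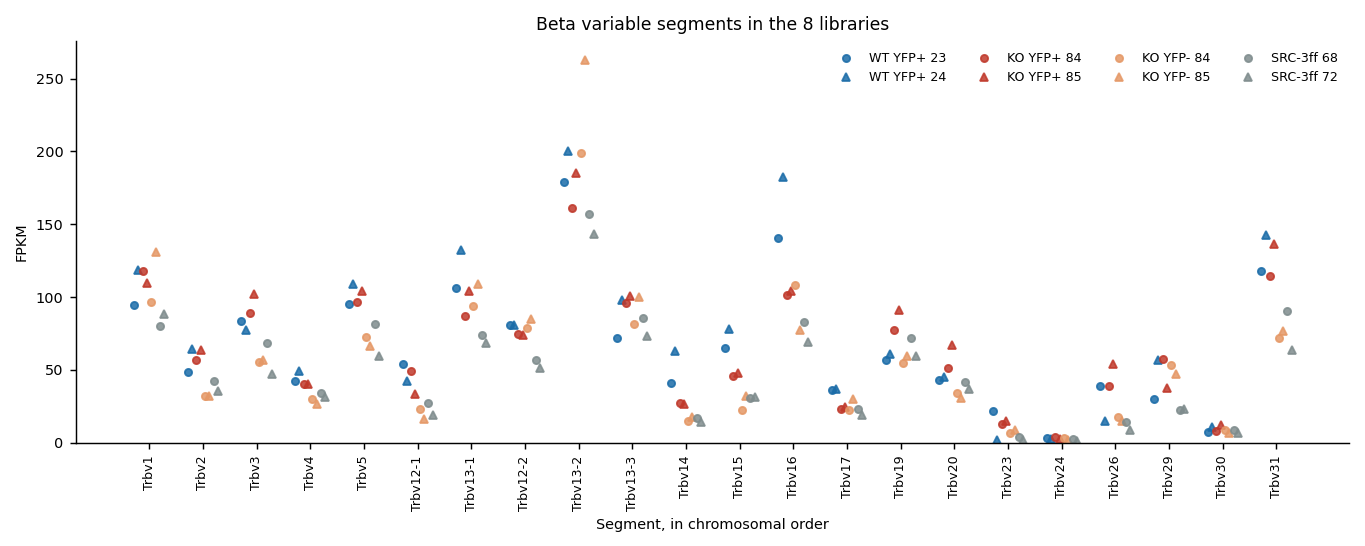
FPKM of the 22 beta variable segments with at least 1 FPKM in 2 libraries, in chromosomal order, 1 point for each of the 8 libraries. Trbv13-2 lies highest in every library, up to 263 FPKM in KO YFP- 85, and the 4 YFP+ points of Trbv14 and Trbv15 lie above the other 4.

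The Trbv sum was 1457, 1669, 1430, 1537, 1182, 1288, 1117 and 951 FPKM. Each YFP+ library lay above each of the other 4, by 1.35-fold on the log2 means (two-sided exact permutation test of 4 against 4, p = 0.0286, the smallest that design allows). Adjusted over the 8 measures per library tested in this way, p was 0.114. The beta constant segments moved alongside, since Trbc1 and Trbc2 summed to 2949, 3469, 3186, 3470, 2640, 2804, 2484 and 2181 FPKM. The ratio of the Trbv sum to the Trbc sum, chosen after the data were seen, was 0.494, 0.481, 0.449, 0.443, 0.448, 0.459, 0.450 and 0.436. It was highest in both WT YFP+ libraries, while KO YFP+ lay within the range of the other 4. On this ratio the YFP+ difference was 0.06 on the log2 scale (exact p = 0.286). Without WT YFP+ 24 or KO YFP+ 85 the exact p was 0.0571, with log2 differences of 0.39 and 0.43.

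Evenness of use was taken as the effective number, the number of equally used segments that would give the same Shannon entropy as the FPKM shares. For Trbv it was 18.0, 17.1, 18.1, 17.8, 16.1, 15.1, 16.8 and 16.4, so each YFP+ library lay above each of the others. The mean was 17.7 ± 0.453 in YFP+ and 16.1 ± 0.749 in the others (SD, n = 4 each, two-sided exact permutation p = 0.0286, adjusted 0.114 over the 8 measures). Pielou evenness, the entropy over its maximum, was 0.859 to 0.883 in YFP+ and 0.833 to 0.858 in the others. Trbv13-2 alone held 12.3%, 12.0%, 11.3%, 12.0%, 16.8%, 20.4%, 14.1% and 15.05% of the Trbv FPKM, more in each of the other libraries than in any YFP+ library. With the most used segment of each library left out, the difference in effective number fell from 1.60 to 0.898 (exact p = 0.0571). The exact p was also 0.0571 without WT YFP+ 23, KO YFP+ 84, KO YFP+ 85 or KO YFP- 85, with differences of 1.52, 1.48, 1.58 and 1.25.

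The level of Trbv13-2 itself did not pass. It measured 179, 200, 161, 185, 199, 263, 157 and 143 FPKM (log2 difference of YFP+ from the others -0.03 ± 0.11, limma adjusted p = 0.87). When libraries were scaled to their Trbc sum it was lower in YFP+ by -0.40 (adjusted p = 0.013), a scaling chosen after the data were seen that moves the median of all tested genes to -0.34. Trbv1 (94.2, 118, 118, 109, 96.9, 131, 79.9 and 88.2 FPKM) and Trbv13-3 (log2 difference 0.10 ± 0.12) did not pass either. Beta chains of invariant NKT cells are known to use mostly Trbv13, Trbv29 and Trbv1. Trbv29 measured 30.1, 57, 57.7, 37.7, 53.5, 46.9, 22.5 and 23.3 FPKM, lowest in SRC-3ff, and KO YFP- lay within the range of YFP+.

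**Figure D2:**
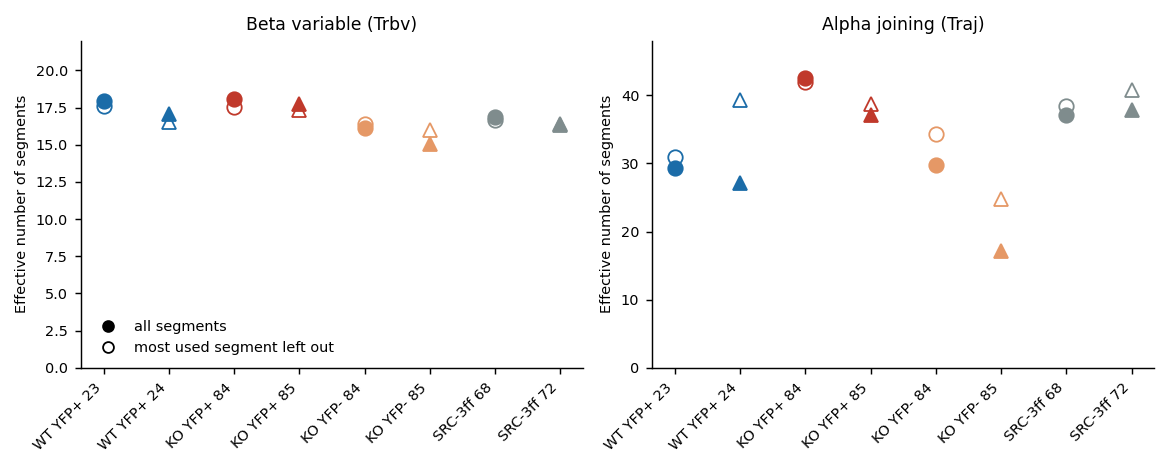
Effective number of segments in each library (left Trbv, right Traj), with filled points for all segments and open points with the most used segment of that library left out. Trbv values lie between 15.1 and 18.1, while Traj values range from 17.2 in KO YFP- 85 to 42.5 in KO YFP+ 84.

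Single Trbv were tested with limma on log2(FPKM + 1) across the whole table, with p adjusted over all 14134 tested genes. In the 4 YFP+ libraries against the other 4, 11 of the 22 tested Trbv were higher and 0 lower, where 15.2% of all tested genes passed, 6.17% higher and 9.03% lower. The median log2 difference was 0.49 over the 22 Trbv and -0.02 over all tested genes, and 21 of 22 were above 0. The groups did not overlap for 9 of the 22, against 17.7% of all tested genes. Trbv14 measured 40.9, 62.8, 27.5, 26.7, 14.6, 17.9, 16.8 and 14.4 FPKM. Its YFP+ libraries all lay above the others, with WT YFP+ the highest (log2 difference 1.18 ± 0.15, limma adjusted p = 0.0032). Trbv15, its neighbour, measured 64.9, 78.0, 45.6, 48.1, 22.4, 31.7, 30.9 and 31.4 FPKM. WT YFP+ was again highest and YFP+ did not overlap with the others (0.98 ± 0.12, adjusted p = 0.0030). Trbv2 measured 48.6, 64.1, 56.5, 63.5, 31.9, 31.8, 42.3 and 35.6 FPKM, again with no overlap (0.70 ± 0.11, adjusted p = 0.0071).

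The calls of Trbv2, Trbv14 and Trbv15 held with each library left out and under every alternative run. The count of 18 Trbv and Traj called was 10 without KO YFP+ 85. Trbv31 (118, 142, 114, 136, 72.2, 76.5, 90.3 and 63.8 FPKM, log2 difference 0.75 ± 0.13, limma adjusted p = 0.010) and Trbv12-1 (53.7, 42.1, 49.2, 33.1, 23.2, 16.0, 27.4 and 18.7, 1.03 ± 0.20, adjusted p = 0.015) held with each library left out, but not with all low genes kept in the test (0.056 and 0.074). Trbv4 (0.48 ± 0.08, adjusted p = 0.011) also held with each library left out, but not when libraries were scaled to their Trbc sum (0.32). Another 5 passed but each depended on single libraries. Trbv3 (log2 difference 0.62) lost the call without WT YFP+ 23, KO YFP+ 85 or either KO YFP- library (highest adjusted p = 0.063), and Trbv5 (0.54) without WT YFP+ 24, KO YFP+ 84, KO YFP+ 85 or KO YFP- 85 (0.073). Trbv16 (0.61) lost it without WT YFP+ 24, KO YFP+ 84, KO YFP+ 85, KO YFP- 85 or SRC-3ff 72 (0.088), and Trbv20 (0.50) without WT YFP+ 24, KO YFP- 85 or SRC-3ff 72 (0.072). Trbv26, with 38.9, 14.9, 39.2, 53.9, 17.9, 14.8, 14.1 and 8.80 FPKM, lost it without KO YFP+ 84 or 85, KO YFP- 84 or 85, or SRC-3ff 72 (0.115). All 5 also lost it with all low genes kept in the test. With the scaling to Trbc the calls were 5 Trbv higher and 2 lower and 0 Traj higher and 9 lower. The median of all tested genes moved to -0.34 there, so the lower calls follow in part from the scaling. Of the 11, 5 still passed, namely Trbv14 (adjusted p = 0.0032), Trbv15 (0.0078), Trbv31 (0.017), Trbv2 (0.020) and Trbv12-1 (0.042).

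Several joining segments were far higher in 1 library than in the rest. Traj11 measured 325 FPKM in WT YFP+ 24 and at most 16.7 in the other 7 libraries. Traj12 measured 530 FPKM in KO YFP- 85 and at most 37.5 elsewhere. Traj28 reached 96.1 in WT YFP+ 24 against at most 12.2, Traj34 123 in WT YFP+ 23 against at most 26.5, and Traj8, a pseudogene row of 37 bases, 220 in KO YFP- 84 against at most 53.7. Traj50 was high in WT YFP+ 23 (156 FPKM) and KO YFP- 85 (194), with 12.1 to 27.0 in the other 6. Traj9 was high in WT YFP+ 23 (135) and SRC-3ff 68 (84.4), with 17.7 to 26.8 in the other 6. None of these 7 was high in both libraries of a group, and none passed in any comparison.

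Over the 55 Traj that passed the filter, 8 had a highest library more than 2 times the next one, up to 19.5 times for Traj11. Over the 22 Trbv that passed, 0 did, and the largest such ratio was 1.53. The gap between the 2 libraries of a group, taken at its largest for each segment, had a median of 0.96 (log2) over the Traj and 0.46 over the Trbv. Traj16 also differed widely within both KO groups, with 8.74, 6.91, 8.90, 91.2, 118, 11.9, 68.2 and 41.7 FPKM. Traj2 varied within groups too, with 41.8, 6.40, 41.3, 107, 53.2, 87.9, 37.1 and 6.09. Neither was high in 1 library alone, and Traj16 was raised in both SRC-3ff libraries. Traj27, also among the 8 Traj of highest mean share, stayed within 28.9 to 52.5 FPKM and passed in no comparison. Among Trbv, Trbv23 had the widest gap, with 21.5, 2.08, 13.0, 14.6, 6.82, 8.68, 3.64 and 1.66 FPKM. The same fragments give a higher FPKM on a shorter segment, so levels of the short Traj rest on less sequence than those of Trbv.

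**Figure D3:**
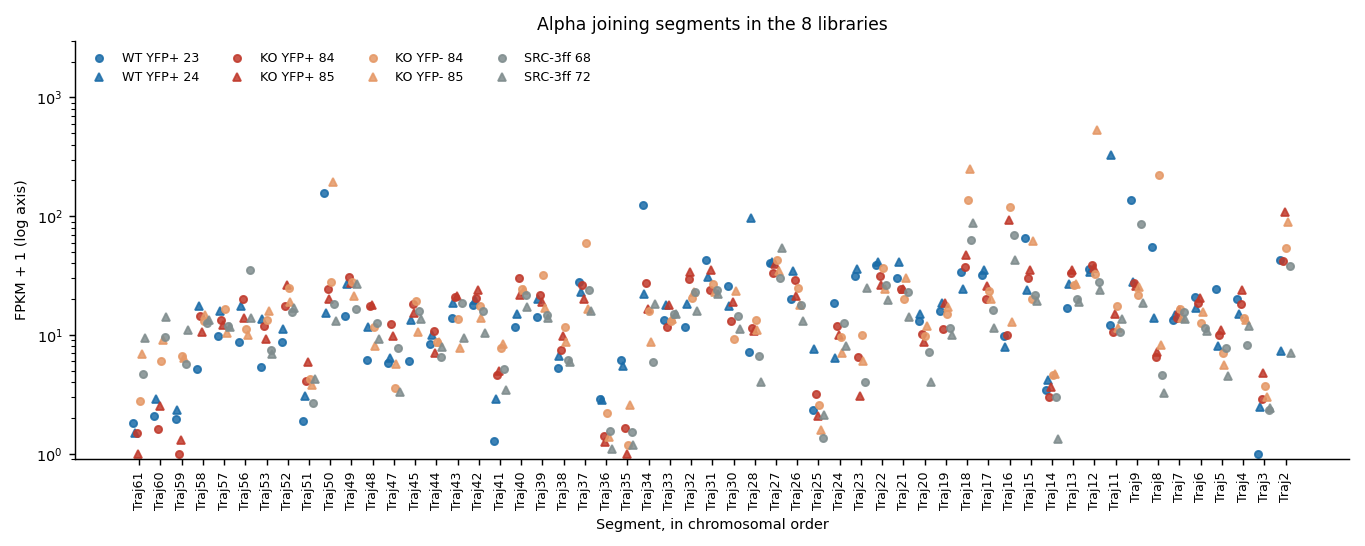
FPKM + 1 on a log axis of the 55 alpha joining segments with at least 1 FPKM in 2 libraries, ordered along the chromosome from the segment farthest from Trac (left), 1 point per library. Traj11 in WT YFP+ 24 (325 FPKM) and Traj12 in KO YFP- 85 (530 FPKM) stand apart from the other 7 libraries, and Traj61, Traj60 and Traj59 are lower in the YFP+ libraries.

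The effective number of Traj was 29.4, 27.1, 42.5, 37.1, 29.8, 17.2, 37.1 and 37.8. The most used segment differed between libraries. In the same order of libraries it was Traj50 (12.5% of the Traj FPKM), Traj11 (25.7%), Traj2 (4.69%), Traj2 (10.3%), Traj8 (16.7%), Traj12 (30.5%), Traj9 (9.74%) and Traj18 (11.9%). YFP+ and the other libraries overlapped (33.99 ± 7.09 against 30.5 ± 9.56, SD, n = 4 each, two-sided exact permutation p = 0.629), and without KO YFP- 85 the sign turned (-0.915). KO YFP+ lay above WT YFP+ in both libraries, a comparison of 2 against 2 for which no exact p below 0.33 is possible. With the most used segment left out the WT YFP+ values became 30.9 and 39.4 and those of KO YFP+ 41.9 and 38.8, which overlap.

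The Traj sum showed no shared direction. It was 1249, 1263, 881, 1045, 1318, 1738, 866 and 727 FPKM. In YFP+ against the others the log2 difference was 0.002 (two-sided exact permutation p = 1), with both signs among the values with 1 library left out (-0.195 to 0.224). By position, the 19 segments numbered 20 and below, nearest Trac, held 37.0% to 49.6% of the Traj FPKM in YFP+ and 39.5% to 63.4% in the others (exact p = 0.314). The 20 numbered 21 to 40 held 36.5%, 36.9%, 37.1% and 30.01% in YFP+ and 27.2%, 15.9%, 29.3% and 35.5% in the others (exact p = 0.0571, adjusted 0.152 over the 8 measures). The 21 numbered above 40 held 20.5% ± 4.33 and 21.6% ± 3.69 (SD, n = 4 each, exact p = 0.743). Of these 3 shares none passed.

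Of single Traj, 3 of 55 were higher and 4 lower in YFP+ than in the others, 12.7% against 15.2% of all tested genes, so the share called was no higher than the background. The higher ones were Traj17, Traj6 and Traj4, all near Trac. Traj17 lost the call without WT YFP+ 23 or 24, KO YFP+ 85, KO YFP- 85 or SRC-3ff 72 (highest limma adjusted p = 0.073), Traj6 without KO YFP+ 85 or SRC-3ff 72 (0.053), and Traj4 without WT YFP+ 23, KO YFP+ 85, KO YFP- 84, KO YFP- 85 or SRC-3ff 68 (0.093). The lower ones were Traj18 and the 3 segments farthest from Trac, Traj59, Traj60 and Traj61. The groups did not overlap for 8 of 55 Traj, or 14.5%, against 17.7% of all tested genes.

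Traj18, the joining segment of invariant NKT cells, measured 33.1, 23.4, 36.5, 46.1, 137, 246, 62.5 and 86.5 FPKM. It was lower in all 4 YFP+ libraries than in the other 4 (log2 difference -1.75 ± 0.22, limma adjusted p = 0.0034), and this held with each library left out and under every alternative run. Its share of the Traj FPKM was 1.85% to 4.42% in YFP+ and 7.22% to 14.2% in the others. Trav11, the variable segment that invariant NKT cells join to it, measured 3.44, 3.88, 2.18, 4.76, 72.8, 149, 25.8 and 40.5 FPKM in the same libraries. Trav11d, a near-identical copy, measured 3.72, 4.33, 2.37, 4.87, 76.1, 156, 27.5 and 42.5, and reads can be split between both. Zbtb16, which encodes PLZF, the transcription factor of invariant NKT cells, was at most 0.0981 in YFP+ and measured 5.11 to 18.0 in the others. KO YFP- 85 had the highest value of Traj18, Trav11 and Zbtb16, and the part of invariant NKT cells in the difference was not tested. In the YFP+ libraries Trav11 was at most 4.76 and Traj18 was 23.4 to 46.1 FPKM. Traj18 is only 66 bases long and Trav11 can share reads with its copy, so these 2 levels cannot be set against each other.

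**Figure D4:**
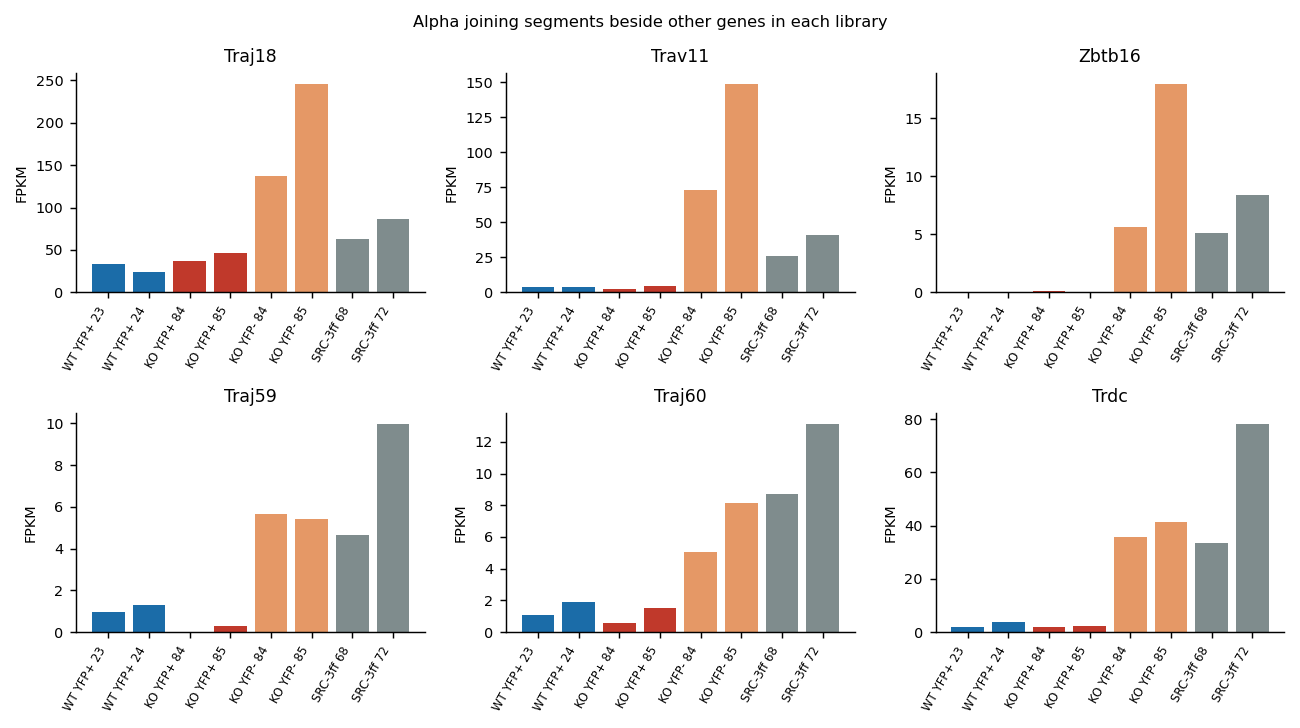
FPKM in each of the 8 libraries of Traj18, Traj59 and Traj60 beside Trav11 and Zbtb16 (genes of invariant NKT cells) and Trdc (the delta constant segment), as bars on linear axes from 0 that differ between panels. In all 6 panels the 4 YFP+ libraries lie below the other 4.

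Traj33, the joining segment of MAIT cells, did not pass. It measured 12.3, 16.7, 10.6, 16.9, 12.2, 12.5, 13.9 and 14.0 FPKM, and no comparison of the 7 called it (limma log2 difference of YFP+ from the others 0.07 ± 0.16, adjusted p = 0.80). Trav1, its variable segment in MAIT cells, measured 6.96, 6.91, 3.88, 13.7, 10.6, 13.4, 11.0 and 14.2.

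Traj59 measured 0.945, 1.32, 0, 0.297, 5.66, 5.44, 4.65 and 9.99 FPKM. Traj60 measured 1.07, 1.88, 0.607, 1.51, 5.04, 8.14, 8.69 and 13.2, and Traj61 0.821, 0.487, 0.500, 0, 1.79, 5.87, 3.67 and 8.50. All 3 were low in each YFP+ library and higher in each of the others. The log2 differences were -2.21 ± 0.23 for Traj59 (limma adjusted p = 0.0016), -2.07 ± 0.24 for Traj60 (0.0024) and -1.93 ± 0.36 for Traj61 (0.014). Traj61 was below 1 FPKM in all 4 YFP+ libraries and Traj59 in 3 of them, so both passed the filter on low values only through the other libraries, and their difference follows in part from that filter. Traj59 and Traj60 held with each library left out and under every alternative run, while Traj61 was lost without KO YFP+ 85 (0.054) and with all low genes kept in the test (0.073). Traj58 and Traj57, the next segments towards Trac, measured 4.22 to 16.5 and 8.72 to 15.7 FPKM with no such order. Traj61, Traj60 and Traj59 start 6137, 7065 and 7265 bases beyond the 3′ end of Trdc, the constant segment of the delta chain, on the same strand. Trdc measured 2.03, 3.90, 2.07 and 2.32 FPKM in the YFP+ libraries and 35.6, 41.5, 33.5 and 78.3 in the others. A part of gamma delta T cells in the 3 segments was not tested.

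Between KO YFP+ and WT YFP+ the sort was shared, while genotype and strain differed. Of 22 Trbv and 55 Traj, 0 passed with limma in either direction, where 0.757% of all tested genes passed, 0.304% higher and 0.453% lower. An unadjusted limma p below 0.05 was found for 6 Trbv and 14 Traj. The share of all tested genes below that unadjusted threshold was not taken, so these counts have no background beside them. The median log2 difference was 0.03 over the Trbv, -0.07 over the Traj and 0.01 over all tested genes. The groups did not overlap for 11 of 22 Trbv and 28 of 55 Traj, against 40% of all tested genes. Trbv14 (27.1 against 51.9 FPKM on the group means, log2 difference -0.88 ± 0.21, adjusted p = 0.19) and Trbv15 (46.9 against 71.5, -0.59 ± 0.17, adjusted p = 0.29) were lower in both KO YFP+ libraries. Trbv19 measured 77.0 and 91.4 against 56.4 and 60.8 (0.51 ± 0.13, adjusted p = 0.23). Traj35 had the smallest p, with 0.640 and 0 against 5.11 and 4.43 FPKM (-2.17 ± 0.41, adjusted p = 0.10). It would have missed the filter without the WT YFP+ libraries, where it was high, so its direction follows in part from that filter. Without WT YFP+ 23 the count was 2, and at most 1 without any other library.

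Both sorts of the KO mice were set against each other, KO YFP+ against KO YFP-. Of 22 Trbv 3 were higher and 0 lower, and of 55 Traj 0 were higher and 3 lower, where 4.9% of all tested genes passed, 1.44% higher and 3.46% lower. The median log2 difference was 0.51 over the Trbv and -0.02 over all tested genes. The libraries did not overlap for 14 of 22 Trbv and 22 of 55 Traj, against 49% of all tested genes. Trbv2 measured 56.5 and 63.5 against 31.9 and 31.8 FPKM (0.89 ± 0.15, limma adjusted p = 0.024), and Trbv20 51.0 and 66.9 against 34.1 and 31 (0.83 ± 0.14, 0.025). Trbv15 was also higher (0.79 ± 0.17, adjusted p = 0.048). The lower segments were Traj59 (-2.52 ± 0.32, 0.0094), Traj18 (-2.13 ± 0.31, 0.014) and Traj60 (-1.89 ± 0.34, 0.028). Each of the 6 lost its call with all low genes kept in the test, and Trbv15 and Trbv20 also when scaled to Trbc (adjusted p = 0.11 and 0.074). Under that scaling 1 Trbv was higher and 1 lower and 3 Traj were lower, while the median of all tested genes moved to -0.27. Fitted on the 4 libraries compared alone, Trbv15 (0.10), Trbv20 (0.067) and Traj60 (0.055) were lost too. Traj59 was below 1 FPKM in both KO YFP+ libraries. Trbv2 and Traj60 lost it without any 1 of the 4 libraries compared (highest 0.14 for both), Trbv20 without KO YFP+ 85 or either KO YFP- library (0.13), Trbv15 without any library but KO YFP- 85 (0.21), and Traj59 and Traj18 without either KO YFP+ library or KO YFP- 85 (0.067 and 0.092). Without KO YFP+ 85 0 of the 6 remained, without KO YFP+ 84 the count was 1, without KO YFP- 85 2 and without KO YFP- 84 3.

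KO YFP+ and SRC-3ff, the second control, differ in genotype, strain and sort. Of 22 Trbv 3 were higher and 0 lower, and of 55 Traj 2 were higher and 3 lower, where 10.2% of all tested genes passed, 4.15% higher and 6.09% lower. All 22 Trbv had a log2 difference above 0 (median 0.54), and the libraries did not overlap for 20 of 22 Trbv and 32 of 55 Traj (58.2%), against 61% of all tested genes. Trbv26 measured 39.2 and 53.9 against 14.1 and 8.80 FPKM (1.95 ± 0.43, limma adjusted p = 0.036), but not when any 1 of the 6 KO and SRC-3ff libraries was left out (highest adjusted p = 0.19). Trbv3 (88.7 and 102 against 68.3 and 46.9, adjusted p = 0.042) lost its call without any library but SRC-3ff 68 (highest 0.19). Trbv12-2 (74.4 and 73.8 against 56.4 and 51.2, 0.46 ± 0.09, adjusted p = 0.026) turned to -0.05 when scaled to Trbc, and lost its call without KO YFP+ 84, KO YFP+ 85 or SRC-3ff 72 (highest 0.16). Traj59 was lower by -2.79 ± 0.32 (adjusted p = 0.0063), the 1 of the 8 calls that held with each library left out and under every alternative run. The count of 8 was 1 without KO YFP+ 84 or SRC-3ff 72, 2 without KO YFP+ 85 and 13 without SRC-3ff 68, and with all low genes kept in the test it was 2. Scaled to Trbc, 1 Trbv was higher and 0 lower, and 0 Traj were higher and 4 lower, while the median of all tested genes moved to -0.45. Fitted on the 4 libraries compared alone, Trbv3 (0.11), Trbv12-2 (0.071), Traj4 (0.074) and Traj61 (0.052) were lost. Traj60 (-2.54 ± 0.34, adjusted p = 0.0093) was lost without KO YFP+ 84 or SRC-3ff 72 (highest 0.068) and Traj61 (-2.44 ± 0.50, 0.031) without WT YFP+ 23, KO YFP+ 84, KO YFP+ 85 or SRC-3ff 72 (highest 0.17). Both KO YFP+ libraries were below 1 FPKM for Traj59 and Traj61, which passed the filter through other libraries. Traj4 measured 17.2 and 22.8 against 7.26 and 10.8 FPKM (1.08 ± 0.23, adjusted p = 0.034), and Traj6 17.5 and 19.4 against 10.4 and 9.87 (0.80 ± 0.16, 0.027). Both were higher in KO YFP+, and both lost the call without any 1 of the 4 libraries compared (highest 0.16 and 0.15), with all low genes kept in the test and when scaled to Trbc. Traj4 lost it also without either KO YFP- library.

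WT YFP+ against SRC-3ff compared both controls, which differ in strain and sort. Of 22 Trbv 7 were higher and 0 lower, and of 55 Traj 4 were higher and 3 lower, where 9.22% of all tested genes passed, 3.73% higher and 5.49% lower. The libraries did not overlap for 18 of 22 Trbv and 32 of 55 Traj, against 57.2% of all tested genes. Trbv14 (51.9 against 15.6 FPKM on the group means) was higher by 1.64 ± 0.21 (limma adjusted p = 0.0052) and held with each library left out and under every alternative run. Trbv16 measured 140 and 182 against 82.9 and 69.4 (1.07 ± 0.19, adjusted p = 0.019), and Trbv15 was higher by 1.17 ± 0.17 (0.0089). Both were lost without WT YFP+ 24 or SRC-3ff 72 (highest 0.12 and 0.059). Of the Traj, Traj17 measured 30.9 and 34.2 against 15.3 and 10.4 (1.30 ± 0.20, adjusted p = 0.012), lost without WT YFP+ 24 or SRC-3ff 72 (highest 0.071). Traj60 (-2.26 ± 0.34, adjusted p = 0.0097) was lower, and lost the call without WT YFP+ 23 or SRC-3ff 72 (highest 0.070). Traj18 (-1.37 ± 0.31, 0.040) was lower too, and lost it without any 1 of the YFP+ or SRC-3ff libraries (highest 0.22). The count of 14 was 2 without SRC-3ff 72, 7 without WT YFP+ 24 and 9 without WT YFP+ 23, and with all low genes kept in the test it was 2. Scaled to Trbc, 3 Trbv were higher and 1 lower, and 4 Traj were higher and 8 lower. That scaling moved the median of all tested genes to -0.42, so these directions follow in part from it. Fitted on the 4 libraries compared alone, 8 of the 14 remained.

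The other Trbv called between the controls depended on single libraries. Trbv12-2 (0.58 ± 0.09, limma adjusted p = 0.011) lost the call without WT YFP+ 24 or SRC-3ff 72 (highest 0.078), and Trbv13-1 (0.73 ± 0.15, 0.027) without those or SRC-3ff 68 (0.16). Trbv17 measured 36.2 and 37.0 against 23.4 and 18.7 FPKM (0.78 ± 0.17, 0.034), lost without any 1 of the YFP+ libraries or SRC-3ff 72 (0.19). Trbv31 (0.76 ± 0.18, 0.046) was lost without any library but SRC-3ff 68 (0.21) and with quantile normalization (0.053). All 4 were lost when scaled to Trbc (adjusted p from 0.093 to 0.42), and Trbv13-1, Trbv17 and Trbv31 also with all low genes kept in the test and on the 4 libraries alone (0.064, 0.056 and 0.11). Among the Traj, Traj35 (5.11 and 4.43 against 0.515 and 0.181 FPKM, 2.11 ± 0.41, adjusted p = 0.025) and Traj20 (12.2 and 13.9 against 6.19 and 3.03, 1.38 ± 0.27, 0.026) were higher in WT YFP+, and Traj59 was lower (-1.89 ± 0.32, 0.016). Traj35 was below 1 FPKM in both SRC-3ff libraries and would have missed the filter without the WT YFP+ libraries, where it was high. Its direction follows in part from that filter. Traj59 was below 1 in WT YFP+ 23. Each of these 3 was lost without WT YFP+ 23, WT YFP+ 24 or SRC-3ff 72 (highest 0.15) and with all low genes kept in the test. Traj35 was lost also without SRC-3ff 68, Traj35 and Traj59 with a pseudocount of 0.1 (0.11 and 0.063), and Traj20 and Traj59 on the 4 libraries alone (0.082 and 0.064).

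KO YFP- against WT YFP+ differed in genotype, strain and sort. Of 22 Trbv 0 were higher and 7 lower, and of 55 Traj 6 were higher and 1 lower, where 9.27% of all tested genes passed, 5.9% higher and 3.37% lower. The libraries did not overlap for 11 of 22 Trbv and 29 of 55 Traj, against 53.3% of all tested genes. Traj18 had the largest change of the 14, 2.68 ± 0.31 (192 against 28.3 FPKM on the group means, limma adjusted p = 0.0040), and Trbv15 (-1.38 ± 0.17, 0.0046) and Trbv14 (-1.59 ± 0.21, 0.0057) were lower. These 3 held with each library left out and under every alternative run. Traj41 measured 6.70 and 7.42 against 0.271 and 1.89 (2.07 ± 0.38, adjusted p = 0.021), lost without either KO YFP- library (highest 0.098). The count of calls, new ones included, was 8 without either WT YFP+ library, 6 without KO YFP- 84, 4 without its partner 85 and 3 with all low genes kept in the test. Of the 14 themselves, leaving out WT YFP+ 23 kept 6 and WT YFP+ 24 kept 4, while leaving out KO YFP- 84 kept 5 and its partner 4. Fitted on the 4 libraries compared alone, 6 of the 14 remained, and Trbv2, Trbv4, Trbv16, Traj35, Traj40, Traj41, Traj52 and Traj60 were lost (adjusted p from 0.051 to 0.12). Scaled to Trbc, 1 Trbv was higher and 4 lower, and 8 Traj were higher and 0 lower, while the median of all tested genes moved to 0.23.

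Among the other Traj of this comparison, Traj59 (1.63 ± 0.32, limma adjusted p = 0.026) and Traj60 (1.60 ± 0.34, 0.031) were higher in KO YFP-, with the levels given above. Traj52 measured 24.0 and 17.9 in KO YFP- against 7.76 and 10.1 FPKM (1.14 ± 0.24, adjusted p = 0.031), and Traj40 23.5 and 22.9 against 10.7 and 14.0 (0.87 ± 0.21, 0.047). WT YFP+ held the lowest pair of libraries for both. Trbv12-1 was lower in KO YFP- (-1.26 ± 0.28, adjusted p = 0.036), as was Traj35, at 0.176 and 1.58 against 5.11 and 4.43 FPKM (-1.73 ± 0.41, 0.046). Traj59, Traj60, Traj52, Traj40 and Trbv12-1 each lost the call without any 1 of the 4 libraries compared (highest 0.19), and Traj40 also without either SRC-3ff library. Traj35 lost it without any library but KO YFP- 85 (highest 0.17). All 6 lost it with all low genes kept in the test, Traj59 and Traj35 also with a pseudocount of 0.1 (0.095 and 0.20), Traj40 with quantile normalization (0.060), and Trbv12-1 and Traj35 when scaled to Trbc (0.079 and 0.051). Traj59, Traj35 and Traj41 were below 1 FPKM in 1 library of the lower group. Traj35 would have missed the filter without the WT YFP+ libraries.

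KO YFP- and SRC-3ff are the 2 groups outside the YFP+ sort. With limma 1 of 22 Trbv and 0 of 55 Traj differed, where 0.644% of all tested genes passed, 0.375% higher and 0.269% lower. An unadjusted limma p below 0.05 was found for 5 Trbv and 9 Traj, with the share of all tested genes below it again not taken. The 1 call, Trbv12-2 (78.6 and 85.0 against 56.4 and 51.2 FPKM, 0.60 ± 0.09, adjusted p = 0.045), was lost without any 1 of the 8 libraries (highest 0.20). Trbv13-2 measured 199 and 263 against 157 and 143 (0.60 ± 0.15, adjusted p = 0.125). The libraries did not overlap for 10 of 22 Trbv and 25 of 55 Traj, against 52.9% of all tested genes. Comparisons that share a group of libraries are not independent of each other.

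Overlap of use between 2 libraries was taken as the sum over segments of the smaller of both shares. Over the 28 pairs of libraries the median was 88.8% for Trbv (80.8% to 94.7%) and 61.0% for Traj (41.7% to 82.7%). Between the 2 libraries of WT YFP+ the overlap was 92.8% for Trbv and 55.9% for Traj. KO YFP+ had 94.7% and 82.7%, KO YFP- had 91.8% and 54.5%, and SRC-3ff had 94.7% and 77.8%. Between YFP+ and YFP- libraries of the same number, the Traj overlap was 66.7% for 84 and 52.2% for 85, and the Trbv overlap 88.0% and 82.0%. These are descriptions, with no test.

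**Figure D5:**
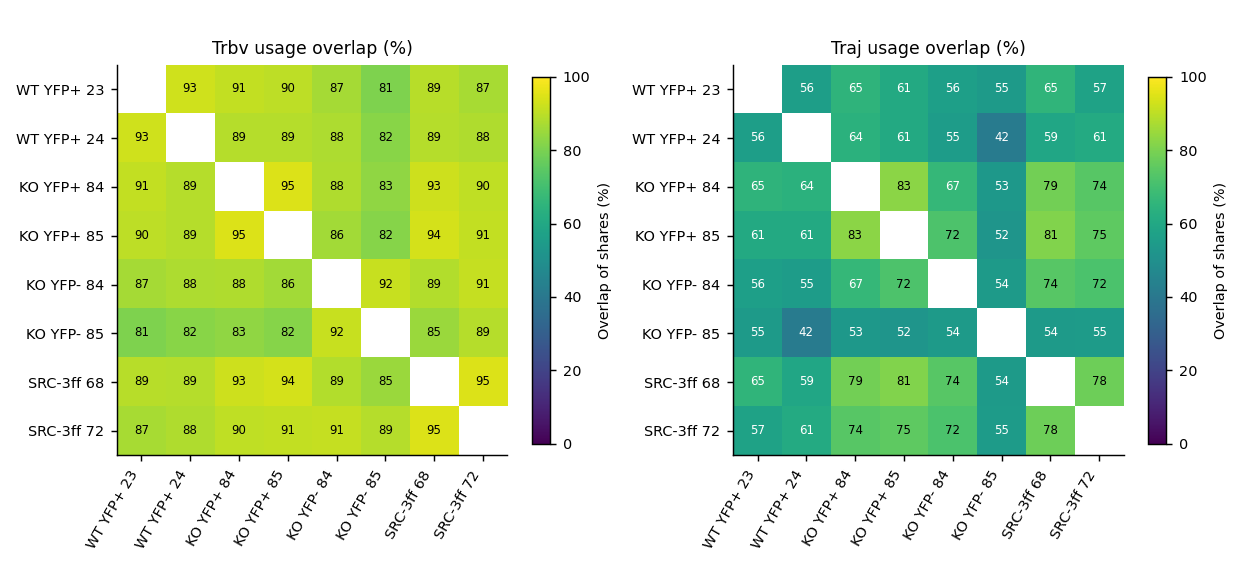
Overlap of segment shares between each pair of the 8 libraries in percent (left Trbv, right Traj), on a colour scale from 0 to 100. Trbv pairs lie between 80.8% and 94.7%, and Traj pairs between 41.7% and 82.7%, lowest for WT YFP+ 24 with KO YFP- 85.

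Other receptor genes gave the setting. In YFP+ against the others, 6.17% of all tested genes were higher and 9.03% lower. Of 3 constant segments (Trac, Trbc1 and Trbc2) 2 were higher, as were 6 of 16 beta joining and diversity segments, with 0 lower in either list. Of 111 tested alpha variable segments 30 were higher and 10 lower, the lower ones at about the share over all tested genes. Of 20 tested delta and gamma segments 0 were higher and 19 lower (median log2 difference -3.91). Some of them, such as Trgc3 (at most 0.371 FPKM in YFP+) and Trdv5 (at most 0.963), passed the filter only through the other libraries. The direction of such rows was fixed in advance, so this count is a description only. Of the 4 CD3 signalling chain genes 0 passed. Of the recombination genes Dntt, which adds bases at the joins, was the 1 tested and was lower (-1.04), at 0.412 to 0.684 FPKM in YFP+ and 1.27 to 3.17 in the others. Dntt thus passed the filter on low values only through the libraries where it was high, so its call supports nothing further. In KO YFP+ against WT YFP+, 27 of 111 alpha variable segments passed (14 higher and 13 lower). Of all tested genes 0.757% passed there, 0.304% higher and 0.453% lower. Of 3 constant, 16 beta joining and diversity and 20 delta and gamma segments 0 passed.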

How the data were processed

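RNA of 8 Treg samples was amplified with a SMART-Seq v4 kit and sequenced, per the labels' protocols. The submitters' processing notes name Trim Galore, STAR and StringTie and the builds mm10 and GRCm38, with versions, annotation and strand setting not given in the sources used here. The authors deposited a table of FPKM values per gene as StringTie gives them. Read depth is therefore unknown, and no counting intervals can be given. Nothing in the labels says whether the 2 libraries of a group come from separate animals, so p-values measure the spread between these libraries, which may be technical.

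The 14134 genes that reached 1 FPKM in 2 or more libraries were tested with limma 3.58.1 in R 4.3.3, on log2(FPKM + 1) with a trended variance, all 8 libraries in 1 model of 4 groups (4 residual degrees of freedom), and p was adjusted by Benjamini-Hochberg over all of them within each of 7 comparisons, with 0.05 as threshold. Fold changes are on that scale and understate changes of low genes. In simulated data of the 14134 genes for KO YFP+ against WT YFP+, limma recovered 73% of 100 genes changed by 1 and 95% of 100 changed by 2 on the log2 scale, with 10 false among 178 calls. The changed genes were drawn only from those with a mean log2(FPKM + 1) above the value for 5 FPKM. These rates were not taken for Trbv or Traj alone. They therefore cannot say how often limma would miss a change in low segments or in segments far higher in 1 library. Values per library were compared by exact permutation. Tables were handled in Python 3.11.15 with pandas 2.3.3 and numpy 2.4.6, figures drawn with matplotlib 3.10.9, and sequences aligned with Biopython 1.88.

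All 95 symbols matched GENCODE M21 on GRCm38. Members, gene lists and tests were chosen with earlier results of these data known. Named were the 8 Trbv and 8 Traj of highest mean share, up to 10 called members per comparison with the largest change, the 3 of each family with the widest gap within a group, and segments of invariant NKT and MAIT cells. Traj28, Traj34, Traj57, Traj58, Traj35 and Trbv14 in comparisons where they did not pass, Trbv24, Trav11d and Trav1 were named after their values were seen.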

Additional observations from a re-analysis of the deposited data

How the results depend on the processing

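With 1 library of a group left out, the lone library is assumed to vary like the other groups. Values are differences of YFP+ from the others unless another comparison is named, and with single libraries left out they ran as follows. The log2 Trbv sum ran from 0.349 to 0.495, the Trbv effective number from 1.25 to 1.84, the log2 Traj sum from -0.195 to 0.224, the Traj effective number from -0.915 to 5.95, and the percent of Traj FPKM in segments numbered above 40 from -2.79 to 0.748. The log2 difference of Trbv13-2 ran from -0.134 to 0.0674. Counts of Trbv and Traj called ran from 0 to 2 for KO YFP+ against WT YFP+, 0 to 8 for KO YFP+ against KO YFP-, 1 to 13 for KO YFP+ against SRC-3ff, 2 to 17 for WT YFP+ against SRC-3ff, 4 to 14 for KO YFP- against WT YFP+, 0 to 1 for KO YFP- against SRC-3ff and 10 to 21 for YFP+ against the others. Divided by the constant segments, a choice made after seeing the data, the log2 Trbv sum differed by 0.057 and the Traj sum by -0.081. The Trbv effective number without the most used segment differed by 0.898. The share of the Traj numbered above 30, used in place of those above 40, differed by 2.55. With no filter on low values the counts were 0 for KO YFP+ against KO YFP-, 2 for KO YFP+ against SRC-3ff, 2 for WT YFP+ against SRC-3ff, 3 for KO YFP- against WT YFP+, 0 for KO YFP- against SRC-3ff and 8 for YFP+ against the others, where more genes are tested. Fitted on the 4 libraries compared, they were 9 for WT YFP+ against SRC-3ff (8 of the 14 kept), 7 for KO YFP- against WT YFP+ (6 of 14), 7 for KO YFP+ against SRC-3ff (4 of 8), 6 for KO YFP+ against KO YFP- (3 of 6) and 0 for KO YFP- against SRC-3ff. The last was 0 also with a pseudocount of 0.1, a minimum of 5 FPKM, quantile normalization, the replicate block and scaling to Trbc. Scaled to Trbc, also chosen after seeing the data, KO YFP+ against SRC-3ff had 5, and Trbv12-2 turned to -0.051 there. Of 394 other values of single segments, 306 kept direction and call, 86 lost the call, 1 gained it and 1 turned, and of 408 values with 1 library left out 259 kept both, 145 lost the call and 4 turned. The causes were not tested.

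The numbers 84 and 85 occur in both KO groups, but the labels do not say what a number marks, and the deviations of both groups correlated at 0.137 over 14134 genes, with only 2 pairs. With the number as a replicate block, 10 of 14 calls of KO YFP- against WT YFP+ were kept, 6 of 6 of KO YFP+ against KO YFP-, 6 of 8 of KO YFP+ against SRC-3ff, 13 of 14 of WT YFP+ against SRC-3ff, 17 of 18 of YFP+ against the others and 0 of 1 of KO YFP- against SRC-3ff. Lost were Trbv16, Trbv31, Traj35 and Traj40 in the first (adjusted p from 0.052 to 0.068), Trbv3 (0.059) and Trbv26 (0.054) against SRC-3ff in KO YFP+, Trbv31 (0.059) in WT YFP+, Trbv26 (0.057) in all YFP+ and Trbv12-2 (0.071) in KO YFP-.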
